A study of Mus musculus with 8 samples.

Results

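Immediate early transcription factors are DNA-binding proteins whose genes are switched on by factors already present in the cell, so their transcripts appear ahead of most other responses to a stimulus. The 10 members described here were taken by symbol from the deposited expression table of 18473 genes. They are Jun, Junb, Jund, Fos and Fosl2 of the AP-1 family, the zinc finger factors Egr1, Egr2, Klf2 and Klf4, and the orphan nuclear receptor Nr4a1. RNA was sequenced from 8 mouse libraries, 4 titled EXO and 4 titled LPS. The series title and design text concern macrophages treated with ADSC-Exos, which usually means exosomes of adipose-derived stem cells, and LPS usually means lipopolysaccharide, a bacterial cell wall component. The labels spell out neither term, give no dose or time, and do not say whether LPS was also present in the EXO cultures. Every library carries the same labels for tissue (lung), cell type (epithelial cell) and line (MLE-12, mouse lung epithelium made immortal by a viral oncogene), and the registry number written beside the line differs in every library.

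The labelled cell type was not borne out by the few of its markers that had values. Of 17 epithelial markers 3 were analysed (Ocln, Elf3 and Lamp3), and none of them had a mean of 1 FPKM. Their summed level ran from 0.0133 to 0.137 FPKM in EXO and from 0.0151 to 0.110 in LPS. The other 14 had no values in the deposited data, which is not the same as a measured low level. Among 16 markers of macrophages, 15 reached a mean of 1 FPKM, led by Lyz2, Fcer1g and Tyrobp. Between 37014760 and 40591444 fragments per library were recovered from the values. The labels do not say that replicates came from separate cultures; the p-values therefore reflect the spread of these libraries, which may be technical.

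In macrophages, MAP kinase cascades downstream of growth factor and Toll-like receptors act on serum response factor, its ETS partners and CREB, and these switch on the Fos, Jun, Egr and Nr4a genes. AP-1 is a dimer of a Jun protein with a Fos, Jun or ATF protein, and its make-up sets which sites it reads and how strongly it activates. Klf2 and Klf4 are known in myeloid cells for restraining inflammatory genes, and Nr4a1 (Nur77) is known there for limiting inflammatory activation.

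RefSeq start-site windows (GRCm38.p6, 250 bases before to 50 after an annotated start) were available for 9 of the 10 members, all but Egr1. Those of 5 members that differed between the groups are printed 5′ to 3′ on the strand of the gene. CREB-type motifs are a textbook entry point of these signals, and EGR-type motifs are bound by EGR proteins, the products of member genes. Junb and Nr4a1 were higher in EXO, like Egr1, which has no window, and Fos, Jund and Klf2 were lower. Capitals mark TGACG, the core of the CREB site, and GCGNGGGCG, the EGR site, on either strand.
Junb (chr8:84978699-84978998, minus strand): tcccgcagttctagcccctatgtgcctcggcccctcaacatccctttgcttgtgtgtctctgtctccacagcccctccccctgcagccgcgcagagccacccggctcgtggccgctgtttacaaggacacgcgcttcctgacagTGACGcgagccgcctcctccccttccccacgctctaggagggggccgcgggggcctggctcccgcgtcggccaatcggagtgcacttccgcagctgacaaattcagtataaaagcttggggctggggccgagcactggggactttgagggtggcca
Nr4a1 (chr15:101266596-101266895, plus strand): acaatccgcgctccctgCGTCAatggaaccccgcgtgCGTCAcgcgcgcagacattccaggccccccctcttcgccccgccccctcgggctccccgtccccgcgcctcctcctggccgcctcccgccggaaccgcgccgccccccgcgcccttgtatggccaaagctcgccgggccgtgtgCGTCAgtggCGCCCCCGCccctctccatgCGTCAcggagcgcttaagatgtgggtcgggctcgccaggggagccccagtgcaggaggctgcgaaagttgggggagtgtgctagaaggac
Fos (chr12:85473640-85473939, plus strand): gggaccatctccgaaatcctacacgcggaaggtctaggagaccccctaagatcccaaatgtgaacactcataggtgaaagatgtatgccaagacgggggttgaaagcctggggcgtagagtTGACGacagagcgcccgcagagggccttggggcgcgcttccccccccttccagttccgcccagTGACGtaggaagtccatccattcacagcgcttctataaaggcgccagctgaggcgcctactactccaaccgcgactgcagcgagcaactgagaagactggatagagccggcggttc
Jund (chr8:70697489-70697788, plus strand): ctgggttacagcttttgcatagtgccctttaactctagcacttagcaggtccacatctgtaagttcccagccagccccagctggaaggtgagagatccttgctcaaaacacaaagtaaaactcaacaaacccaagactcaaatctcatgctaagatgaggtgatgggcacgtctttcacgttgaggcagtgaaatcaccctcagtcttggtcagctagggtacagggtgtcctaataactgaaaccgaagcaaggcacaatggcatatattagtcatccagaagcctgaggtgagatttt
Klf2 (chr8:72318812-72319111, plus strand): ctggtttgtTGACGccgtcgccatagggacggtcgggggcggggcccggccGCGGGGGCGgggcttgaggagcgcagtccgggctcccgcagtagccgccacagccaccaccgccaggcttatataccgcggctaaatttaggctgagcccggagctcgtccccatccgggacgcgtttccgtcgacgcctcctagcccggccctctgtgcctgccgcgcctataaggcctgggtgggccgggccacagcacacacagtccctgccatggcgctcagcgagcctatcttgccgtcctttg

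The Nr4a1 window held TGACG at 4 places and GCGNGGGCG at 1, all on the minus strand. The Fos window held TGACG at 2 places, at -129 and -66 from the start, and the Junb window at 1, at -106. In the Klf2 window TGACG lay at -241 and GCGNGGGCG at -199, and the Jund window held neither. The Jund window had 46.7% GC, against 58.7% to 72.3% in the other printed windows. Whether transcription starts there in these cells was not tested. Of the 32851 windows in the table, 20.8% held TGACG and 5.55% held GCGNGGGCG. Their median GC content was 52.7%, and they were not matched for GC to the printed windows. TGACG was present in every printed window but that of Jund. Both motifs were found among members that were higher and among members that were lower. The full palindrome TGACGTCA, the AP-1 site TGANTCA and the CArG box bound by serum response factor were found in none of the 5 windows, which says only that these letters are not there. The searched motifs are descriptions of sequence, and TGACGTCA contains TGACG on both strands.

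Levels are given as FPKM, fragments scaled to gene length and library depth, as mean ± SD over the 4 libraries of a group. Differences were taken as EXO minus LPS after log2(FPKM + 1), which understates the change of low genes. They were tested with limma, adjusted over the 9812 genes with at least 1 FPKM in at least 4 libraries. In these bulk libraries, fewer cells expressing a gene and less RNA per cell cannot be told apart. Of the 10 members 8 were tested, and of these Egr1, Junb and Nr4a1 were higher in EXO, Fos, Jund and Klf2 were lower, and Jun and Fosl2 were not called. Among all genes tested 33.7% were higher and 24.7% lower, 58.4% together, so 6 called members of 8 is near the background. Nr4a1 passed the filter only through the group in which it is high. Egr1 did so in effect as well, with all 4 EXO libraries but only 1 LPS library at 1 FPKM or more. The median difference was -0.11 over the 10 members and -0.09 over the 8 tested members, against 0.09 over all genes tested.

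**Figure D1:**
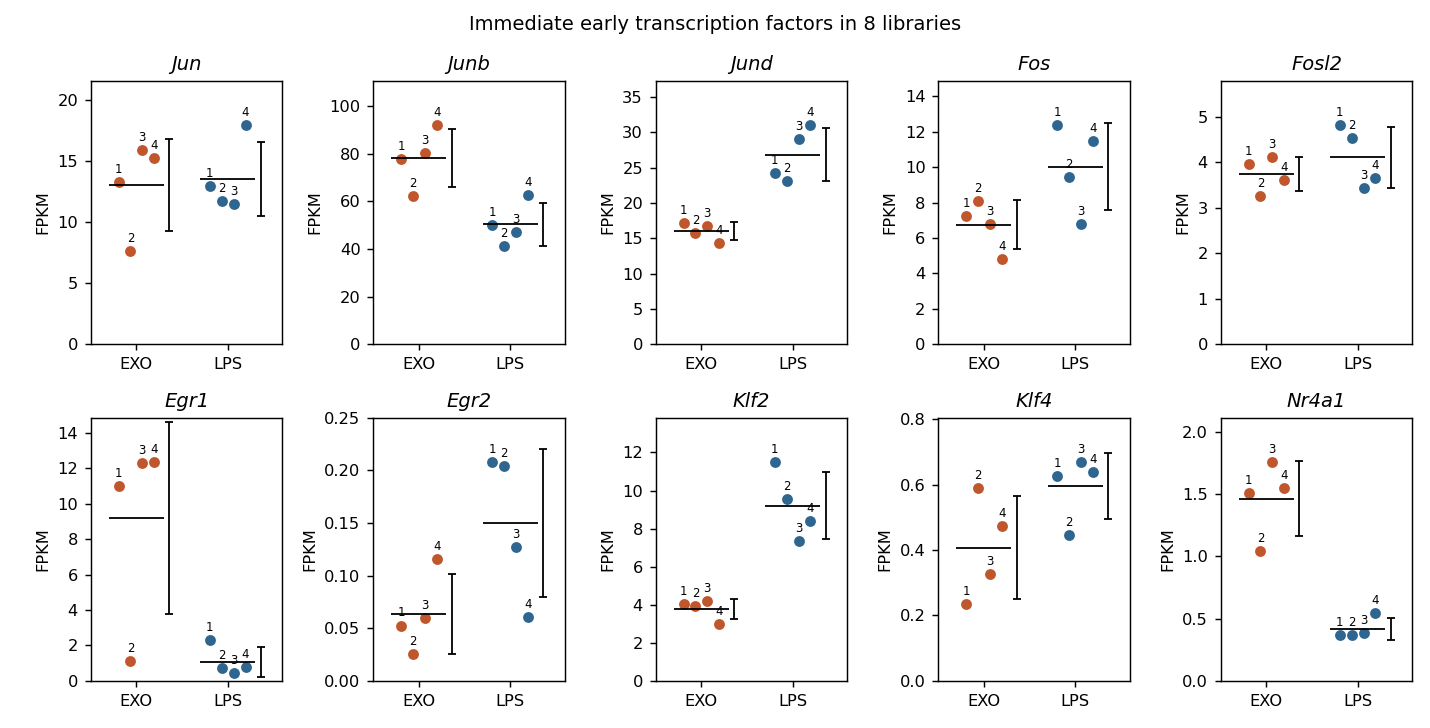
FPKM of each member (vertical axes, linear, starting at 0) in the 4 EXO and 4 LPS libraries, with replicate numbers beside the points, group means as lines and SD as bars. Jund, Klf2 and Nr4a1 separate the groups completely, and the Egr1 point of EXO replicate 2 lies at 1.13 among the LPS points.

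Junb, the most abundant member and a Jun protein that activates more weakly than Jun at many sites, was higher in EXO. Junb (Entrez gene 16477) stood at 77.7, 62.2, 80.4 and 92.0 FPKM in EXO replicates 1 to 4 and at 50.2, 41.3, 46.9 and 62.6 in LPS replicates 1 to 4. The groups met at the edge, since LPS replicate 4 lay just above EXO replicate 2. The means were 78.1 ± 12.3 and 50.3 ± 9.01 FPKM, a ratio of 1.55, and the log2 difference was 0.63 (SE 0.15, 95% interval from 0.32 up to 0.94, limma adjusted p = 0.00197). The call held under all 15 alternatives tried, with differences from 0.53 to 0.84.

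Jund, a Jun protein whose gene is usually expressed steadily and responds little to stimuli, moved the other way. Jund (Entrez gene 16478) stood at 17.2, 15.8, 16.8 and 14.4 FPKM in EXO and at 24.2, 23.1, 29.0 and 31.0 in LPS. Every EXO library was below every LPS library. The means were 16.0 ± 1.25 and 26.8 ± 3.79 FPKM, 1.67 times higher in LPS. The log2 difference was -0.70 (SE 0.12, limma adjusted p = 2.12e-04).

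Jun, the founding AP-1 protein, did not differ detectably. It stood at 13.3, 7.68, 15.9 and 15.3 FPKM in EXO and at 13.0, 11.7, 11.5 and 18.0 in LPS. The lowest library was EXO replicate 2 and the highest LPS replicate 4, and the groups overlapped throughout. The log2 difference was -0.08 (95% interval from -0.52 up to 0.37, limma adjusted p = 0.771). Its sign turned without EXO replicate 2 (0.141), without LPS replicate 4 (0.0601) and without both (0.276, limma adjusted p = 0.0539).

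Fos, the partner that gives AP-1 dimers their stability on DNA, was lower in EXO by a small margin. Fos (Entrez gene 14281) stood at 7.26, 8.09, 6.80 and 4.83 FPKM in EXO and at 12.4, 9.45, 6.81 and 11.5 in LPS, where replicate 3 lay among the EXO libraries. The log2 difference was -0.50 (SE 0.18, limma adjusted p = 0.0254), and the call ended without EXO replicate 4 (limma adjusted p = 0.0860), without LPS replicate 1 (0.0765), without LPS replicate 4 (0.0637) or with no filter on low values (0.0868). Fosl2 (Fra-2), a Fos relative without the activating tail of Fos, averaged 3.74 ± 0.376 FPKM in EXO and 4.12 ± 0.669 in LPS. Its log2 difference of -0.10 was not called (95% confidence interval from -0.36 up to 0.15, limma adjusted p = 0.474). Its libraries ran from 3.27 to 4.11 FPKM in EXO and from 3.44 to 4.82 in LPS, so the groups overlapped.

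Added together, the 5 AP-1 transcripts had sums that overlapped between the groups, while the shares held by Junb and Jund did not overlap. Their summed FPKM was 119, 97.0, 124 and 130 in EXO and 105, 90.1, 97.6 and 127 in LPS, with wide overlap. Junb made up 65.0%, 64.1%, 64.8% and 70.7% of that sum in the EXO libraries and 48.0%, 45.9%, 48.0% and 49.4% in the LPS libraries. Jund held 11.04% to 16.3% in EXO and 23.1% to 29.7% in LPS. The shares of Jun (7.92% to 12.8% in EXO, 11.8% to 14.2% in LPS), Fos (3.71% to 8.34%, 6.98% to 11.8%) and Fosl2 (2.78% to 3.37%, 2.89% to 5.04%) overlapped. Within a library, Junb exceeded Jund 3.93 to 6.41 times in EXO and 1.62 to 2.07 times in LPS. These levels depend on the length used for each gene. On the longest GENCODE M21 basic transcripts the ratio was 2.32 to 3.78 in EXO and 0.954 to 1.22 in LPS, with Junb at 57.6% to 65.7% and 38.9% to 42.3% of the sum and Jund at 17.4% to 24.8% and 33.8% to 41.8%. Other genes whose proteins can join AP-1 dimers are not in the sum, among them Atf3 (mean 70.1 FPKM in EXO, 129 in LPS) and Fosl1 (4.57 and 1.21). The shares would differ with them included. These shares are sums over members chosen with results known and are a description, with no test.

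**Figure D2:**
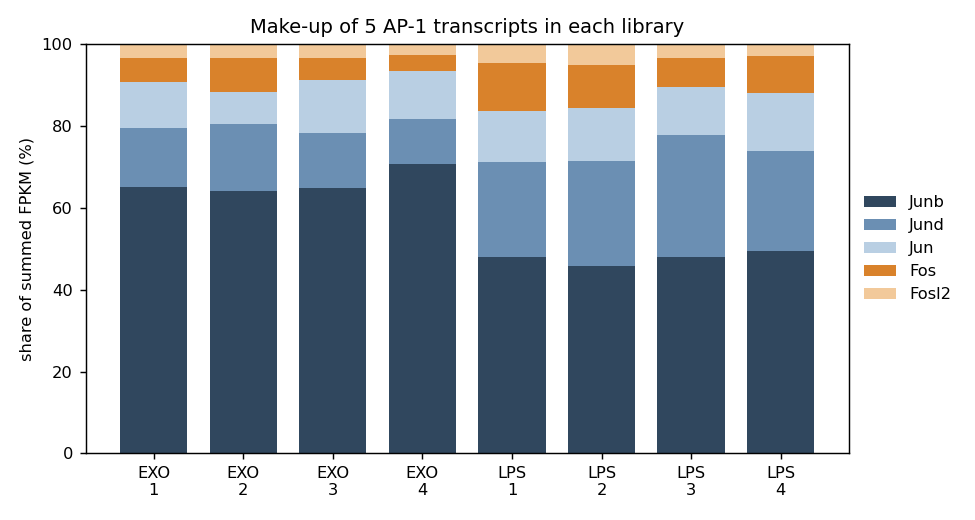
Share of the summed FPKM of 5 AP-1 transcripts (vertical axis, percent, from 0 to 100) held by each gene in each library (horizontal axis, group and replicate). The lowest segment, Junb, reaches 64.1% to 70.7% in EXO and 45.9% to 49.4% in LPS, and the Jund segment is the wider one in LPS.

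Egr1, a zinc finger factor and a standard readout of ERK signalling, had the highest fold of the members and also the widest spread. Egr1 (Entrez gene 13653) stood at 11.02, 1.13, 12.3 and 12.4 FPKM in EXO and at 2.28, 0.722, 0.464 and 0.811 in LPS. EXO replicates 1, 3 and 4 lay above all LPS libraries, whereas EXO replicate 2, with 136 fragments on the gene, lay below LPS replicate 1 with 285. The means were 9.21 ± 5.42 and 1.07 ± 0.821 FPKM, a ratio of 8.61, and the log2 difference was 2.06 (SE 0.63, 95% interval from 0.58 up to 3.54, limma adjusted p = 0.0247). Without EXO replicate 2 the difference was 2.71 (limma adjusted p = 4.72e-06). The call ended on removal of EXO replicate 3 or 4 or of LPS replicate 2, 3 or 4, where the limma adjusted p ran from 0.0504 to 0.0763, and with voom on recovered fragments (0.0975).

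EXO replicate 2 was the lowest EXO library for 6 of the 10 members, namely Egr1, Egr2, Fosl2, Jun, Junb and Nr4a1, where it was lowest for 31.6% of all genes tested. It was the highest EXO library for Fos and Klf4. Of 23 tested genes in the list of other immediate early genes it was lowest for 8, near that share, and highest for 3. The genes named next were chosen after their values were seen, for and against the dip. Egr3, a relative of Egr1, stood at 1.03, 0.148, 1.23 and 1.14 FPKM in EXO and at 0.184, 0.0873, 0.0297 and 0.0609 in LPS, and Arc at 0.538, 0.258, 0.863 and 0.810 against 0.189 to 0.217. Ptgs2 (cyclooxygenase 2) went the other way, at 11.8, 19.5, 6.08 and 11.6 FPKM in EXO, as did Nfkbiz, a nuclear regulator of NF-kappa B targets, at 17.5, 32.5, 15.7 and 19.9. Fosl1 (Fra-1), a Fos relative, stood at 4.83, 2.03, 6.72 and 4.71 in EXO and at 1.34, 0.257, 0.735 and 2.50 in LPS. Dusp6, a phosphatase that switches off ERK, was the tested gene whose centred profile over the 8 libraries lay nearest to that of Egr1 (Euclidean distance 1.52 on the log2 scale), with 28.3, 9.95, 45.7 and 31.8 FPKM in EXO and 15.9, 8.17, 6.61 and 12.3 in LPS. The first principal component carried 80.4% of the variance. On it EXO replicate 2 scored -28.2, the other EXO libraries -40.9 to -33.7 and the LPS libraries 23.9 to 42.8. Of 15 tested macrophage markers, EXO replicate 2 was the highest EXO library for 7 and the lowest for 0, where it was highest for 26.3% of all genes tested. Its level of Adgre1, a macrophage marker named after its values were seen, was 221 FPKM against 89.3 to 103 in the other EXO libraries. For the marker Tyrobp it lay among them, at 789 FPKM against 679 to 844. The part of these library differences in the Egr1 values was not tested.

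**Figure D3:**
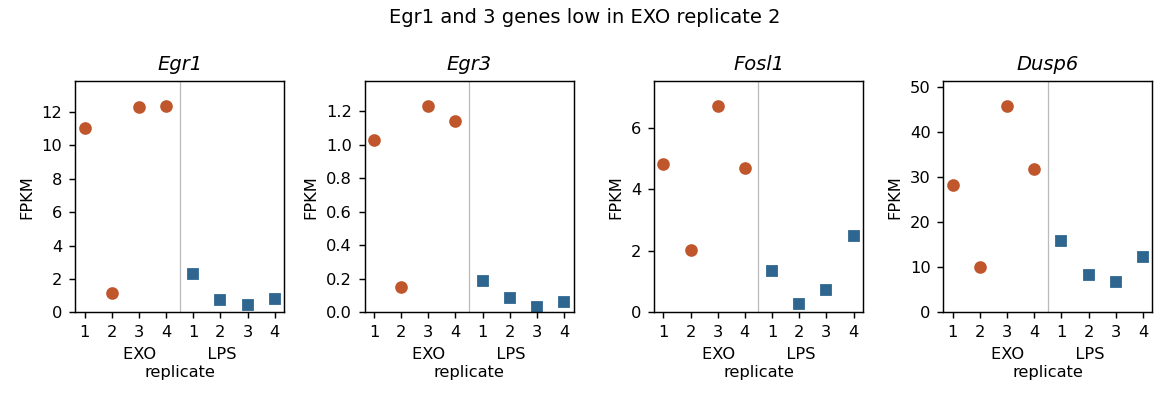
FPKM (vertical axes, linear, starting at 0) of Egr1, Egr3, Fosl1 and Dusp6 in each library (horizontal axes, circles EXO and squares LPS, by replicate number). EXO replicate 2 is the lowest EXO library in each panel, at 1.13 for Egr1 and 9.95 for Dusp6.

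Egr2, an EGR factor known in macrophages for its induction by interleukin 4, was barely detected. Its 8 values ran from 0.0253 to 0.208 FPKM, from 9 to 77 fragments per library, with means of 0.0632 ± 0.0379 in EXO and 0.150 ± 0.0703 in LPS. It did not pass the filter. Fitted with no filter, its limma adjusted p was 0.108.

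Nr4a1 was higher in EXO at a low level. Nr4a1 (Entrez gene 15370) stood at 1.51, 1.04, 1.76 and 1.54 FPKM in EXO and at 0.367, 0.369, 0.382 and 0.546 in LPS, or 205 to 328 fragments against 72 to 109. No EXO library overlapped an LPS library, EXO replicate 2 and LPS replicate 4 lying nearest to each other. With no LPS library at 1 FPKM or more, Nr4a1 could pass the filter only with its groups apart. The means were 1.46 ± 0.303 and 0.416 ± 0.0870 FPKM, a ratio of 3.52, and the log2 difference was 0.79 (SE 0.11, limma adjusted p = 3.73e-05), or 1.59 with a pseudocount of 0.1 and 1.71 with voom on recovered fragments. Its relatives, named after their values were seen, were not tested. Nr4a2 ran from 0.383 to 1.18 FPKM in EXO and from 0.296 to 0.625 in LPS, above Nr4a1 in EXO replicate 2 and LPS replicate 3. That order depends on the length behind the FPKM, about 5035 bases for Nr4a1 against 2553 in its longest GENCODE M21 basic transcript. Nr4a3 was listed at 0 in 6 of the 8 libraries.

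Klf2 showed the clearest decrease in EXO among the members. Klf2 (Entrez gene 16598) stood at 4.04, 3.93, 4.20 and 3.01 FPKM in EXO and at 11.5, 9.55, 7.36 and 8.41 in LPS, with every EXO library below every LPS library. The means were 3.79 ± 0.534 and 9.21 ± 1.78 FPKM, 2.43 times higher in LPS, with a log2 difference of -1.08 (SE 0.14, limma adjusted p = 1.58e-05) that stayed between -1.35 and -0.98 under the 15 alternatives. Klf4 stayed under the filter. Its values ran from 0.236 to 0.591 FPKM in EXO and from 0.447 to 0.671 in LPS, with overlap, and with no filter its limma adjusted p was 0.166. The groups did not overlap in 3 of the 8 tested members (Jund, Klf2 and Nr4a1), where 51.2% of all genes tested had groups that did not overlap. For Nr4a1 the filter itself required this, so its separation is no added result. In Egr2 and Klf4, which were not tested, the groups overlapped.

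**Figure D4:**
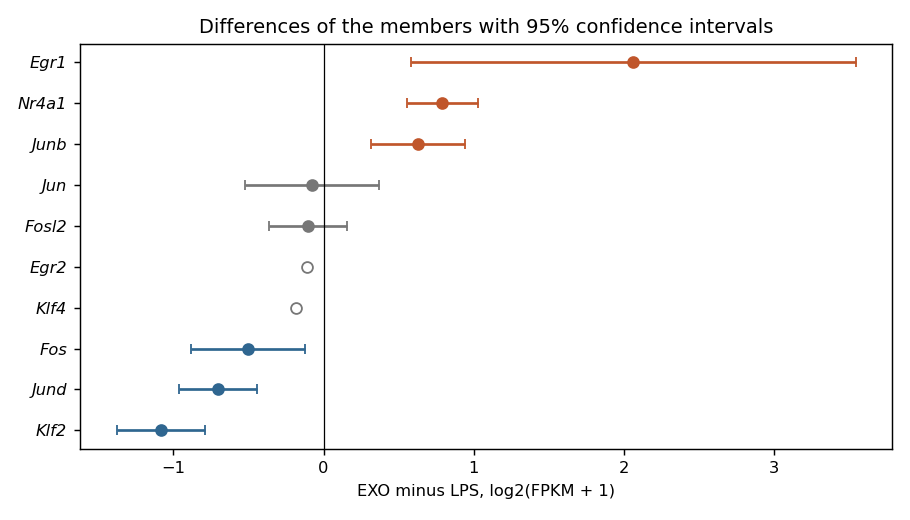
EXO minus LPS in log2(FPKM + 1) units (horizontal axis) of each member, with 95% confidence intervals from limma for the 8 tested members and open points without intervals for Egr2 and Klf4, which were not tested. Orange marks members called higher, blue lower and grey not called, and the Egr1 interval, from 0.58 to 3.54, is the widest.

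The order of levels depended in part on the gene length behind the FPKM. In EXO the order from the top was Junb, Jund, Jun, Egr1, Fos, Klf2, Fosl2, Nr4a1, Klf4 and Egr2, and in LPS it was Junb, Jund, Jun, Fos, Klf2, Fosl2, Egr1, Klf4, Nr4a1 and Egr2. Neighbours whose libraries overlapped were Jund and Jun, Jun and Egr1, Egr1 and Fos, and Klf2 and Fosl2 in EXO, and Jun and Fos, Fos and Klf2, Egr1 and Klf4, and Klf4 and Nr4a1 in LPS. The lengths recovered from the values were about 2114 bases for Fos and 3194 for Jun, close to the longest transcripts in the GENCODE M21 basic set (2108 and 3189). For Egr2, Klf4, Nr4a1 and Jund the recovered lengths were about 9103, 7570, 5035 and 2883 bases, against longest basic transcripts of 2965, 3029, 2553 and 1668. Set on the latter lengths, chosen after the data were seen, Nr4a1 averaged 2.88 ± 0.597 in EXO and 0.821 ± 0.172 in LPS, Klf4 1.02 ± 0.392 and 1.49 ± 0.252, and Jund 27.7 ± 2.16 and 46.4 ± 6.55. Egr1 went the other way, from a recovered length of about 3079 bases to 4484, and averaged 6.32 ± 3.72 and 0.734 ± 0.564. On these lengths Egr1 stood below Fos in EXO and below Klf4 and Nr4a1 in LPS, Fosl2 stood above Klf2 in EXO, and the rest of the order was as before. The ratio between the groups is the same on either length. The log2(FPKM + 1) differences and the filter at 1 FPKM do depend on length, and the calls were not refitted on these lengths.

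The genes nearest in profile to the other tested members were taken by the same distance, which is a description over 8 libraries. They were Nr2c2ap for Junb (0.167), Pafah2 for Jund (0.142), Tagap for Fos (0.346), Arl5a for Fosl2 (0.182), Prmt6 for Jun (0.340), Pilrb1 for Klf2 (0.336) and Smarcd1 for Nr4a1 (0.144). Prmt6 stood at 6.60, 3.67, 7.89 and 6.41 FPKM in EXO and at 6.47, 5.97, 5.68 and 7.20 in LPS, with its lowest value, like that of Jun, in EXO replicate 2 (its sign, too, turned without that library).

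Other immediate early genes were called in both directions, together at a share near that of all genes tested (58.4%). Unlike all genes tested, of which 33.7% were higher and 24.7% lower, more of them fell than rose. Of 32 listed, 30 were analysed and 23 tested, of which 10 fell, 4 rose and 9 passed in neither direction; their median log2 difference was -0.22. Btg1 and Btg2, related antiproliferative genes, averaged 17.9 ± 2.98 and 3.92 ± 0.704 FPKM in EXO against 38.9 ± 3.58 and 7.08 ± 0.360 in LPS. Ier5 averaged 11.8 ± 1.19 and 22.1 ± 4.32, and Csrnp1, a nuclear factor, 2.52 ± 0.397 and 5.46 ± 0.914 (limma adjusted p from 1.10e-05 to 1.52e-04 for these 4 genes). Chosen after its values were seen, Dusp1, a phosphatase that switches off p38 and JNK, stood at 6.98, 6.77, 5.41 and 4.45 FPKM in EXO and at 10.6, 11.9, 10.5 and 17.1 in LPS (log2 difference -0.96, limma adjusted p = 1.92e-04). The genes that rose, also named after their values were seen, were Fosl1, Ier2, Sik1 and Per1. Ier2 averaged 15.9 ± 4.77 and 10.5 ± 2.36 FPKM, and its call (limma adjusted p = 0.0489) was lost under 10 of 15 alternatives. Without EXO replicate 2 the number that rose was 7, and without EXO replicate 2 and LPS replicate 4 it was 9, while 10 fell in both cases.

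**Figure D5:**
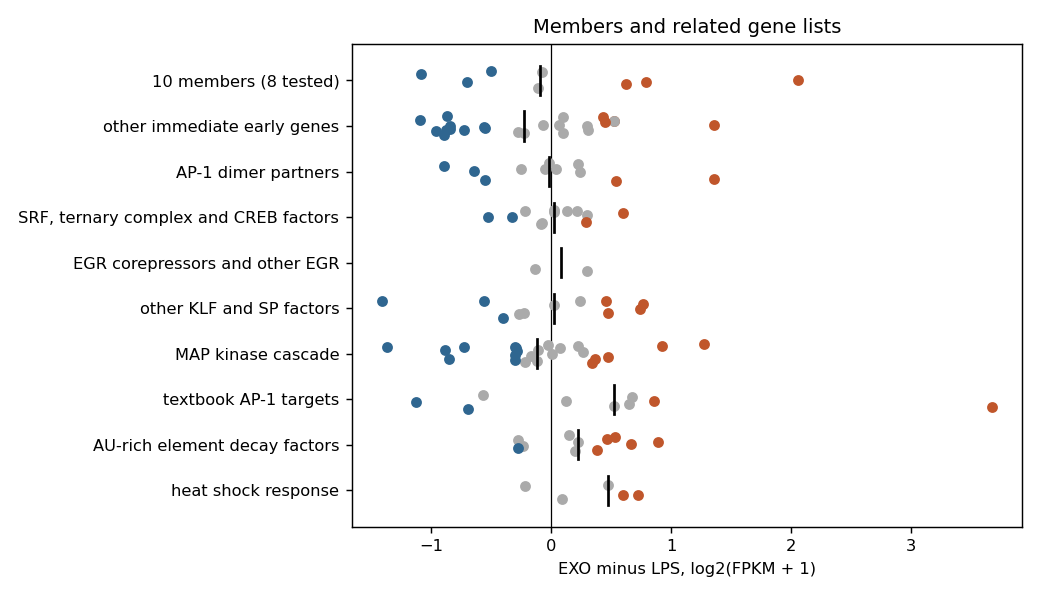
EXO minus LPS in log2(FPKM + 1) units (horizontal axis) of each tested gene of the members and of 9 related lists (rows). Orange points were called higher, blue lower and grey not called, and black bars mark medians, -0.09 for the 8 tested members and -0.22 for the other immediate early genes.

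Partners that can join AP-1 dimers moved in both directions. Of 11 tested, 2 rose (Fosl1 and Jdp2), 3 fell and 6 did neither, around a median of -0.02. Over all genes tested, 33.7% rose and 24.7% fell. Fosl1 averaged 4.57 ± 1.93 FPKM in EXO and 1.21 ± 0.967 in LPS (log2 difference 1.36, limma adjusted p = 0.0130). Atf3, a stress-induced partner that often represses, stood at 65.0, 66.6, 54.4 and 94.3 FPKM in EXO and at 111, 122, 127 and 156 in LPS (log2 difference -0.89, limma adjusted p = 2.70e-04), with no overlap between the groups. Maff, a small Maf protein, averaged 2.61 ± 0.519 and 4.27 ± 0.589. Jdp2, a repressing partner of Jun, averaged 12.0 ± 1.09 and 8.36 ± 3.59, with LPS replicate 4 at 13.7, and its call (limma adjusted p = 0.0331) ended when 1 of EXO replicates 1 to 3 or LPS replicates 1 to 3 was removed, which left 1 gene that rose.

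Most factors that switch immediate early genes on were not called, where 58.4% of all genes tested were called. Of 12 serum response factor, ETS partner and CREB family genes tested, 2 rose, 2 fell and 8 did neither, around a median of 0.02. Atf1, a CREB relative, averaged 27.6 ± 1.75 FPKM in EXO and 18.0 ± 2.84 in LPS, and Mrtfa, the actin-sensing coactivator of serum response factor, 6.63 ± 0.513 and 9.98 ± 0.675. Elk1 and Elk4, ETS partners of serum response factor, averaged 7.22 ± 0.815 and 2.84 ± 0.202 in EXO, and in LPS 5.70 ± 0.334 and 3.82 ± 0.455. The Elk1 call (limma adjusted p = 0.0351) was lost with rescaling (0.104), voom (0.102), the replicate block (0.0614) and on removal of EXO replicate 1 or 4 or LPS replicate 1 or 2 (0.0770 to 0.106), and the Elk4 call (0.0193) without EXO replicate 2 (0.0502) and without it and LPS replicate 4 (0.109). The number that rose was 1 without EXO replicate 1, EXO replicate 4 or LPS replicate 2, and 4 without LPS replicate 4. Nab1 and Nab2, corepressors that bind EGR proteins, averaged 27.2 ± 3.52 and 12.5 ± 3.76 FPKM in EXO against 29.7 ± 1.64 and 9.67 ± 1.16 in LPS. Neither was called (limma adjusted p of 0.345 and 0.138), and Nab2 was called higher without EXO replicate 2 (0.0257).

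Among 11 tested KLF and SP factors that are not members, 4 rose, 3 fell and 4 did neither, around a median of 0.02. Shares over all genes tested were 33.7% higher and 24.7% lower. Klf3, a repressor of the family, stood at 2.25, 3.65, 1.92 and 3.68 FPKM in EXO and from 8.23 upward in LPS, where the mean was 9.05 ± 0.724 (log2 difference -1.40, limma adjusted p = 4.37e-06), below every LPS library as Klf2 was. Klf9 averaged 7.45 ± 0.970 and 4.08 ± 0.931, Klf16 12.4 ± 2.72 and 6.89 ± 1.51, and Sp2 6.10 ± 0.174 and 4.16 ± 0.845, all higher in EXO. Without LPS replicate 4 the number that fell was 5.

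In the MAP kinase cascade, 5 of 23 tested genes rose, 9 fell and 9 did neither, around a median of -0.12. Beside these counts, 33.7% of all genes tested rose and 24.7% fell. Map2k3, a kinase that activates p38, rose (36.1 ± 6.29 FPKM in EXO and 18.4 ± 1.64 in LPS, limma adjusted p = 4.63e-05). Mapk14 (p38 alpha) and its substrate kinase Mapkapk2 fell, from 37.3 ± 1.99 and 542 ± 92.8 FPKM in LPS to 20.3 ± 2.08 and 208 ± 25.1 in EXO. The number that fell was 4 without EXO replicate 1, 5 without EXO replicate 4 and 4 without LPS replicate 3. Transcript levels do not give kinase activity.

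Genes that textbooks list as AP-1 targets did not follow a common direction. Of 9 tested, 2 rose, 2 fell and 5 did neither, around a median of 0.53, where 58.4% of all genes tested were called. Ccl2, a chemokine, averaged 876 ± 147 FPKM in EXO and 86.6 ± 81.3 in LPS, and Plaur, the urokinase receptor, 31.8 ± 12.0 and 16.7 ± 5.52 (limma adjusted p = 0.0405). Hmox1, heme oxygenase, averaged 168 ± 28.2 and 269 ± 20.2, and Vim, vimentin, 593 ± 118 and 1307 ± 303. The Plaur call was lost with no filter on low values (limma adjusted p = 0.0760) and with voom on recovered fragments (0.0524). It was also lost without EXO replicate 1, 3 or 4 or LPS replicate 2, 3 or 4 (0.0646 to 0.105). On removal of EXO replicate 1, 3 or 4 or LPS replicate 2 or 3 the number of these targets that rose was 1, and it was 4 without EXO replicate 2.

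Markers of macrophages moved with the groups beside all of these differences. Of 15 tested markers 14 fell and 1 was not called, where 24.7% of all genes tested fell. The summed level of the 16 markers ran from 6610 to 8091 FPKM in EXO and from 11796 to 23877 in LPS. None of 5 analysed endothelial and 4 analysed fibroblast markers reached a mean of 1 FPKM, with Col1a1, named after its values were seen, at 0 in all libraries. Of 6 analysed neutrophil markers, S100a8 and Csf3r did, and the summed level of the 6 ran from 4.41 to 7.75 FPKM in EXO and from 5.49 to 11.8 in LPS. The part of these marker levels in the values of the members was not tested.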

How the data were processed

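Total RNA of 8 mouse libraries (4 EXO, 4 LPS) was sequenced. The aligner HISAT2 and build GRCm39 (mm39) appear in the submitters' processing notes; no counting tool, strand setting or annotation is named in the sources used here. Values per gene, in 1 table the authors deposited, were taken as FPKM from their steps. For each of the 17645 detected genes these steps gave whole fragments within 0.000616. These fragments served for depth and for an alternative, and intervals cover the spread between libraries.

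Genes with at least 1 FPKM in at least 4 libraries (9812) were compared on log2(FPKM + 1) in limma 3.58.1 (R 4.3.3), with trend and robust variances, two-sided, with Benjamini-Hochberg adjusted p under 0.05. The fit was tested on simulated data. Groups follow the titles. Named genes are the 10 members, up to 4 of each related list by smallest p, the 3 highest of each marker list and the nearest profile of each tested member; others are said to be chosen after their values were seen, and 1 gene that the rule names is not reported here. The members and lists were chosen with earlier results of these data known. Fragments of overlapping or antisense genes cannot be told apart. The start-site windows are of build GRCm38.p6, not the authors' build. Alternatives were a pseudocount of 0.1, no filter, a mean of at least 5 FPKM, median-of-ratios rescaling, voom with TMM scaling on recovered fragments, the replicate number as a block, and libraries left out.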

Additional observations from a re-analysis of the deposited data

Results flagged for a closer look

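For 20 sets of 4 libraries (10 members in 2 groups), the library farthest from the others was compared with Dixon's 95% critical value, which chance passes in about 1 of 20 sets. In 2 sets a library stood apart. Egr1 in EXO replicate 2, at 1.13 FPKM, lay below the other EXO libraries (11.02 to 12.4), the gap being 0.879 of the range. Nr4a1 in LPS replicate 4, at 0.546 FPKM, lay above the other LPS libraries (0.367 to 0.382), with a gap of 0.918 of the range, and below the lowest EXO library (1.04). LPS replicate 4 was the highest LPS library for 4 of the 10 members, and for 49.8% of all genes tested.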

How the results depend on the processing

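The calls of Junb, Jund and Klf2 kept their direction and side of the threshold under all 15 alternatives, and that of Nr4a1 under the 14 in which it was tested, while those of Egr1 and Fos were lost under 6 and 4. The number of members called higher was 2 or 3, and of those called lower 2 or 3, when libraries were left out in turn. Over all genes, the same refits gave 2861 to 3659 higher and 2135 to 2447 lower; rescaling gave 2887 and 2926 and voom 2983 and 2876. The median difference over the 10 members, -0.108, was -0.43 with voom. Of genes named, the sign of Jun turned without EXO replicate 2 or LPS replicate 4 and without both (0.276), the refits that leave out 1 library running from -0.18 to 0.141. Without both libraries S100a8 (-0.0225) and Prmt6 (0.176) also turned, Prmt6 also without EXO replicate 2 alone (range over the refits that leave out 1 library -0.19 to 0.12). The cause was not tested. Same-numbered libraries did not deviate together (correlations 0.0455, 0.17, -0.292 and -0.109 for replicates 1 to 4, with 1 of 4 EXO libraries closest to its own number). With the replicate number as a block 3253 genes were higher and 2339 lower, and 3 and 3 members were called. Fragments per library of 9 to 77 limit Egr2, and 67 to 206 Klf4.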

Other observations

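A list of 11 genes of AU-rich element decay, a route by which Fos and many cytokine transcripts are degraded, holds proteins that bind such elements, the deadenylase subunits Cnot1 and Cnot7 and the RNase Zc3h12a. Of the 11 tested, 5 rose, 1 fell and 5 did neither, around a median log2 difference of 0.22. By comparison, 33.7% of all genes tested rose and 24.7% fell. Cnot7, named after its values were seen, is 1 of the listed genes that rose. Hnrnpd (AUF1) averaged 30.2 ± 5.78 FPKM in EXO and 15.7 ± 2.02 in LPS, Tial1 (TIAR) 16.3 ± 1.09 and 9.998 ± 1.42, Elavl1 (HuR), which stabilizes such transcripts, 18.5 ± 1.83 and 12.4 ± 1.19, and Khsrp 31.3 ± 3.65 and 22.4 ± 2.51. Tia1, named after its values were seen, was the gene that fell, and that count became 0 on removal of EXO replicate 1, 2 or 4 or LPS replicate 2, 3 or 4, and 2 on removal of EXO replicate 3. Zfp36 (tristetraprolin), also named after its values were seen, stood at 71.3, 55.0, 53.8 and 68.0 FPKM in EXO and at 67.5, 64.3, 79.9 and 89.9 in LPS and was not called (limma adjusted p = 0.0964).

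Of 5 tested heat shock genes 2 rose and 3 did not, around a median of 0.47, where 33.7% of all genes tested rose. Hspe1, the mitochondrial co-chaperonin, averaged 888 ± 99.7 FPKM in EXO and 535 ± 33.4 in LPS, and Hsph1 14.2 ± 2.99 and 9.12 ± 2.66. Hsp90aa1 averaged 422 ± 63.9 and 314 ± 107 and Bag3 10.9 ± 1.28 and 12.8 ± 0.994, and neither was called (limma adjusted p of 0.0609 and 0.124). Hsp90aa1 was called higher with the replicate block (0.0437), without LPS replicate 4 (0.000442) and without EXO replicate 2 and LPS replicate 4 (0.000475), and Bag3 lower with rescaling (0.0277) and voom (0.0395). The inducible HSP70 genes Hspa1a and Hspa1b, named after their values were seen, were near 0 in every library, at 0.0182 to 0.0481 and 0.00907 to 0.230 FPKM in EXO and 0.114 to 0.324 and 0.227 to 0.321 in LPS, and how fragments were shared between these near-identical copies is not stated.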
